A study of Homo sapiens with 6 samples.

Results

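The genes described here are S100A10, which encodes the small S100-family protein p11, ANXA2, which encodes its partner annexin A2, and AHNAK, DLC1 and HLTF, whose proteins bind p11 or the p11-annexin A2 complex. They were chosen by gene symbol, with earlier results of these data known. Each of the 5 genes had 1 probe set among the 16965 probe sets of the table, so the brightest probe set of each gene was also its only one. By RefSeq, S100A10 lies on chromosome 1, HLTF on chromosome 3, DLC1 on chromosome 8, AHNAK on chromosome 11 and ANXA2 on chromosome 15.

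Unlike most S100 proteins, p11 has lost the ability to bind calcium in its loops and is locked in an active shape. Its dimer clasps the N-terminal tails of annexin A2 molecules, a lipid-binding protein, and the complex sits under the plasma membrane, where it binds plasminogen and tissue plasminogen activator. Annexin A2 also protects p11 from degradation. AHNAK is a very large scaffold protein held at the membrane by the complex. HLTF, also called SMARCA3, is a chromatin remodelling enzyme and ubiquitin ligase that binds the complex through a short motif. DLC1 is a GTPase-activating protein that switches off small GTPases of the actin cytoskeleton, and it competes with annexin A2 for p11. Arrays read RNA only, so none of these protein interactions was measured.

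The cells were MDA-MB-231, a widely used human line derived from breast cancer that lacks hormone receptors and HER2 and has mesenchymal features, and total RNA was profiled on arrays. Cells had received a lentivirus with 1 of 2 short hairpin RNAs against S100A10 (shS100A10_1 or shS100A10_5), and cells labelled shNCT served as the control. How shNCT was delivered and what it targets are not described in the labels. Each of these 3 groups had 2 arrays. All cells, shNCT included, grew in RPMI1640 with serum, antibiotics and 2.5 µg/ml puromycin, an antibiotic commonly used to select cells that carry a hairpin vector. The labels name neither the hairpins' sequences nor whether clones or pools were used, and nothing in them ties a group's arrays to independent cultures. The p-values therefore measure only how far these arrays spread, which could be technical variation.

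Array medians ran from 231.9 to 238.5, and the small number of arrays limits the precision. Replicate 2 of shS100A10_5 stood farthest from the rest on the first principal component (45.2% of the variance), at 41.1, against 18.7 for replicate 1 and values from -18.2 to -10.0 on the remaining 4 arrays. All 7 markers fixed for MDA-MB-231, vimentin (VIM), CD44 and AXL among them, had shNCT log2 levels between 12.9 and 16.5. Of 6 luminal epithelial markers measured, 4 lay above 4.98, the lower quartile of all probe set means, namely the keratin genes KRT8 (15.4) and KRT18 (14.0), EPCAM (9.87) and GATA3 (6.93). The epithelial cadherin gene CDH1 (3.78) and the luminal factor gene FOXA1 (4.79) lay below it, as did the endothelial marker PECAM1 (3.96) and the fibroblast markers LUM (4.62) and DCN (4.70). The leukocyte markers PTPRC (5.22) and CD3E (5.58) and the endothelial marker VWF (6.02) lay just above it. Only the galectin gene LGALS1, of the MDA-MB-231 markers, passed the test against shNCT among these marker lists. Its log2 change was -0.87 with shS100A10_5 (limma, adjusted p = 0.0483). Of all probe sets, 3.18% passed with shS100A10_5 and 0.189% with shS100A10_1.

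S100A10, the targeted gene, had an intensity of 1969 and 1545 with shS100A10_1, 13565 and 9461 with shS100A10_5, and 88860 and 92938 with shNCT. The 3 groups were far apart and no array of one overlapped another. Both hairpins thus left a measurable signal, and shS100A10_1 left less of it. The mean log2 level was 10.77 ± 0.25 with shS100A10_1, 13.47 ± 0.37 with shS100A10_5 and 16.47 ± 0.05 with shNCT (SD, n = 2 each). Expressed as a share of the shNCT level, 1.92% remained with shS100A10_1 (95% confidence interval 1.38 to 2.67%) and 12.5% with shS100A10_5 (8.95 to 17.4%). On the log2 scale the level fell by 5.70 (SE 0.21; limma, adjusted p = 1.71e-06) and fell by 3.004 (SE 0.21; limma, adjusted p = 0.000442). Each was the largest change of any of the 16965 probe sets in its comparison.

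Compared with shS100A10_1, shS100A10_5 left a 6.49-fold higher S100A10 level (95% confidence interval 4.66 to 9.04; limma, adjusted p = 0.00102). It was the second largest of all changes between the hairpins. The order of the levels was therefore shNCT, shS100A10_5, shS100A10_1 from high to low, and each neighbouring pair differed beyond its spread. Replicates lay 0.35 apart on the log2 scale with shS100A10_1 and 0.52 apart with shS100A10_5, but 0.065 apart with shNCT.

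**Figure D1:**
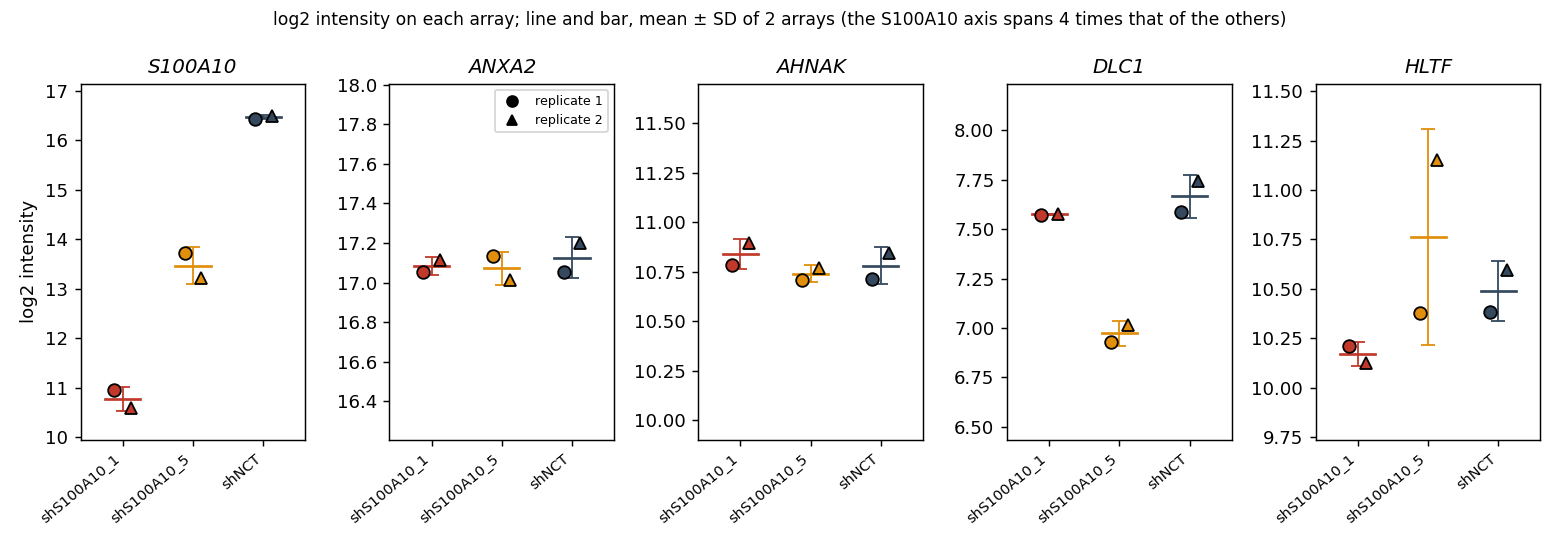
Points are the log2 intensities of single arrays (circles, replicate 1; triangles, replicate 2) for each gene and group, with the group mean and SD (n = 2) as a line and bar. S100A10 separates into 3 levels, ANXA2 and AHNAK arrays of each hairpin overlap those of shNCT, DLC1 is lower with shS100A10_5, and the HLTF arrays of shS100A10_5 lie 0.77 apart.

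S100A10 was the 1 member of 5 past the threshold (adjusted p under 0.05) in every comparison. Among all probe sets the share past it was 0.189% for shS100A10_1 against shNCT, 3.18% for shS100A10_5 against shNCT, 2.91% for shS100A10_5 against shS100A10_1, and 0.307% for the mean of both hairpins against shNCT. The comparisons against shNCT share the same 2 control arrays, so they are not independent of each other.

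ANXA2, the gene of the membrane partner, gave no call with either hairpin. Its intensity was 135969 and 141995 with shS100A10_1, 143648 and 132146 with shS100A10_5, and 135978 and 150603 with shNCT. The 3 groups overlapped, with mean log2 levels of 17.08 ± 0.04 with shS100A10_1, 17.07 ± 0.09 with shS100A10_5 and 17.13 ± 0.10 with shNCT (SD, n = 2 each), and the means had no order beyond the spread. Relative to shNCT, the level was 97.1% with shS100A10_1 (95% confidence interval 74.8 to 126.0%) and 96.3% with shS100A10_5 (74.2 to 124.9%). The intervals reach down to 74.2%, far above the shares left of S100A10. Between the hairpins the log2 difference was -0.01 (SE 0.17), and no ANXA2 comparison passed (limma, adjusted p from 0.891 to 0.978). Of all probe sets, 84.8% had a larger change than ANXA2 with shS100A10_1 and 86.8% with shS100A10_5. The highest intensity of any probe set was 225396, and the table carries no saturation flag.

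AHNAK, the membrane scaffold, gave no call either. Arrays of shS100A10_1 read 1764 and 1903, those of shS100A10_5 read 1674 and 1748, and those of shNCT read 1682 and 1841. Each hairpin overlapped shNCT, while the shS100A10_5 arrays lay just below those of shS100A10_1. The mean log2 level was 10.84 ± 0.08 with shS100A10_1, 10.74 ± 0.04 with shS100A10_5 and 10.78 ± 0.09 with shNCT (SD, n = 2 each). The log2 change was 0.06 with shS100A10_1 (95% confidence interval -0.32 to 0.43) and -0.04 with shS100A10_5 (-0.41 to 0.33). The difference between hairpins was -0.10 (SE 0.17), and no comparison passed (limma, adjusted p from 0.797 to 0.986).

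DLC1, the GTPase-activating protein that competes for p11, was lower with shS100A10_5 but missed the threshold. Its intensity was 190.3 and 190.8 with shS100A10_1, 121.9 and 129.5 with shS100A10_5, and 192.4 and 214.2 with shNCT. Both shS100A10_5 arrays lay below the other 4, which stood close together. The mean log2 level was 7.57 ± 0.0025 with shS100A10_1, 6.97 ± 0.06 with shS100A10_5 and 7.67 ± 0.11 with shNCT (SD, n = 2 each). The log2 change was -0.69 with shS100A10_5 (95% confidence interval -1.07 to -0.32; limma, adjusted p = 0.0542), or 61.9% of the shNCT level. With shS100A10_1, the hairpin that left less S100A10, it was -0.09 (-0.46 to 0.28; limma, adjusted p = 0.936). The difference between the hairpins, -0.60 (SE 0.17), did not pass either (limma, adjusted p = 0.0870). Of all probe sets, 6.92% had a larger change than DLC1 with shS100A10_5. Leaving out shS100A10_5 replicate 2, the array farthest out, gave a log2 change of -0.74 (limma, adjusted p = 0.176), and the comparison with shNCT passed under 3 of 16 other settings, such as a filter on dim probe sets (limma, adjusted p = 0.0322). Without replicate 2, shS100A10_5 is 1 array, assumed here and in the like values below to vary as the other groups do, which alone supply the spread.

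HLTF, the chromatin remodeller, had uneven values. It read 1187 and 1117 with shS100A10_1, 1331 and 2272 with shS100A10_5, and 1334 and 1546 with shNCT. Both shS100A10_1 arrays were the lowest of the 6, and shS100A10_5 replicate 2 was the highest. The other shS100A10_5 array lay beside the lower shNCT array. The mean log2 level was 10.17 ± 0.06 with shS100A10_1, 10.76 ± 0.55 with shS100A10_5 and 10.49 ± 0.15 with shNCT (SD, n = 2 each). The log2 change was -0.32 with shS100A10_1 (95% confidence interval -0.86 to 0.22; limma, adjusted p = 0.798) and 0.28 with shS100A10_5 (-0.26 to 0.81; limma, adjusted p = 0.563). Without shS100A10_5 replicate 2 the second value was -0.11 (limma, adjusted p = 0.825), so its sign rests on that array. Between the hairpins HLTF differed by 0.60 (SE 0.24; limma, adjusted p = 0.209), which was 0.21 without that array. The fit pools the spread of all 3 groups, so the uneven shS100A10_5 arrays also widen the shS100A10_1 interval. With only shS100A10_1 and shNCT fitted, the SE of the shS100A10_1 change was 0.15, against 0.24 (limma, adjusted p = 0.506).

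**Figure D2:**
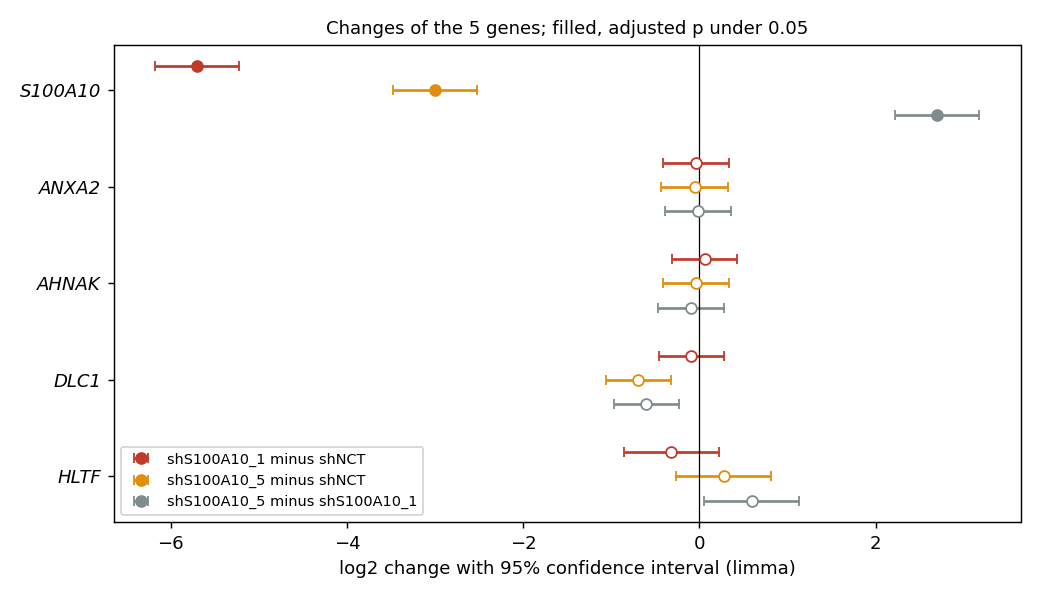
Points are log2 changes of each gene in 3 comparisons with their 95% confidence intervals from limma, filled where the adjusted p is under 0.05. Only the 3 S100A10 points are filled. Of the unfilled points, DLC1 with shS100A10_5 (-1.07 to -0.32), DLC1 between the hairpins (-0.97 to -0.23) and HLTF between the hairpins (0.06 to 1.13) have intervals that exclude 0.

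For the mean of both hairpins against shNCT, S100A10 changed by -4.35 (SE 0.19; limma, adjusted p = 6.05e-06). The 4 partner genes lay between -0.39 (DLC1) and 0.01 (AHNAK) and none passed, the smallest adjusted p by limma being 0.284. In terms of overlap, all 4 arrays of both hairpins lay below both shNCT arrays for S100A10 and DLC1, so the ranges did not overlap for 2 of 5 members, against 19.5% of all probe sets. For shS100A10_1 alone the arrays did not overlap shNCT for 3 members (42.4% of all probe sets), and for shS100A10_5 for 2 (50.5%). Between the hairpins they did not overlap for 4 members, against 49% of all probe sets. With 2 arrays a group, such separation is common.

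Beyond these genes, 5 lists held other proteins reported to bind p11, partners and regulators of annexin A2, relatives and partners of AHNAK, the tensins and small GTPases around DLC1, and the DNA damage tolerance enzymes around HLTF. They named 65 genes, of which 58 had a probe set here. TRPV5, HTR4, CACNA1C, PLCG1, TNS1 and TLN1 were among those not analysed here. With shS100A10_1, 0 of the 58 passed by limma, and 8 had an unadjusted p under 0.05 (13.8%, against 8.44% of all probe sets). With shS100A10_5, 16 of the 58 had an unadjusted p under 0.05 (27.6%, against 21% of all probe sets). Past the adjusted threshold by limma, 4 rose and 1 fell with this hairpin, 8.62% of the 58, against 3.18% of all probe sets. Leaving out either shNCT array, or shS100A10_5 replicate 2, brought that count to 0, and leaving out either shS100A10_1 array brought it to 3. For the mean of both hairpins 2 rose (3.45%, against 0.307% of all probe sets), and between the hairpins 1 gene was higher with shS100A10_5 (1.72%, against 2.91%). The lists were chosen with earlier results of these data known, so these shares are descriptions and no test of the lists. The median change over the 58 was 0.02 with shS100A10_1 and -0.01 with shS100A10_5, against 0.01 and 0.02 over all probe sets.

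Among 15 other ligands of p11, PLAT and UNC13D passed with shS100A10_5, where 3.18% of all probe sets passed. PLAT encodes tissue plasminogen activator, the protease that the annexin A2 complex brings to plasminogen. Its intensity was 37132 and 35714 with shS100A10_1, 29585 and 32489 with shS100A10_5, and 19111 and 17549 with shNCT. All 4 hairpin arrays lay above both control arrays. PLAT rose by 0.76 on the log2 scale with shS100A10_5 (SE 0.17; limma, adjusted p = 0.0430) and by 0.88 for the mean of both hairpins (SE 0.15; limma, adjusted p = 0.0462), and its change with shS100A10_1 was 0.99 (limma, adjusted p = 0.0647). The call for the mean was lost with the replicate block (adjusted p = 0.0518), with quantile normalization (0.0554) and with any one array left out (0.0888 to 0.425). The difference between the hairpins in PLAT was -0.23 (SE 0.17; limma, adjusted p = 0.488). Without shS100A10_5 replicate 2 its change with that hairpin was 0.69 (limma, adjusted p = 0.186). Its adjusted p with shS100A10_5 ran from 0.00132 to 0.256 over all settings.

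UNC13D encodes Munc13-4, a priming factor for secretory granules. It read 659.1 and 775.9 with shS100A10_1, 407.7 and 476.9 with shS100A10_5, and 818.8 and 747.7 with shNCT. Both shS100A10_5 arrays lay below all others, while the range of shS100A10_1 overlapped that of the controls. UNC13D fell by 0.83 with shS100A10_5 (SE 0.18; limma, adjusted p = 0.0414), against a change of -0.13 with shS100A10_1 (limma, adjusted p = 0.917). The difference between hairpins did not pass (-0.70; limma, adjusted p = 0.0692). Without shS100A10_5 replicate 2 the UNC13D change was -0.94 (limma, adjusted p = 0.145).

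The remaining ligands of p11 did not pass in any comparison. They include the serotonin receptor genes HTR1B and HTR1D, the sodium channel gene SCN10A, the cathepsin gene CTSB and the cell death gene BAD. PLG, the plasminogen gene, had a mean change of -0.48 (limma, adjusted p = 0.249) at the dim end of the array, with intensities from 21.8 to 36.6. Other ligands were dim too. All arrays of KCNK3, SCN10A, GRM5 and CCR10 lay below a log2 level of 4.98, the lower quartile of all probe set means. TRPV6 (28.0 to 37.6) and HTR1B (28.5 to 50.4) read close to it. The median of this list, dim genes included, was -0.13 with shS100A10_1 and -0.20 with shS100A10_5, the latter being the TRPV6 value.

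Of 11 partners and regulators of annexin A2, none passed by limma in any comparison. The share of all probe sets that passed was itself low, from 0.189% to 3.18% over the comparisons. Averaged over both hairpins, TNC, SNAP23 and PRKCA came nearest. TNC encodes the matrix protein tenascin-C, a ligand of annexin A2, and read 116.5 and 134.1 with shS100A10_1, 143.6 and 125.4 with shS100A10_5, and 193.6 and 204.4 with shNCT. All hairpin arrays lay below the controls, with a mean log2 change of -0.62 (SE 0.15; limma, adjusted p = 0.150). SNAP23, a SNARE protein of membrane fusion, had a mean change of 0.56 (SE 0.15; limma, adjusted p = 0.174). PRKCA, a kinase that phosphorylates annexin A2, had -0.24 (limma, adjusted p = 0.542). The hyaluronan receptor gene CD44 had log2 changes of 0.01 with shS100A10_1 and 0.04 with shS100A10_5 (limma, adjusted p = 0.996 and 0.922).

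AHNAK2, the closest relative of AHNAK and a large scaffold protein like it, rose, whereas AHNAK itself gave no call. Its intensity was 549.2 and 767.7 with shS100A10_1, 1049.8 and 1053.6 with shS100A10_5, and 382.9 and 346.6 with shNCT. The 3 groups did not overlap, and shS100A10_5 was the highest. AHNAK2 rose by 1.53 on the log2 scale with shS100A10_5 (SE 0.20; limma, adjusted p = 0.00865) and by 1.18 for the mean (SE 0.17; limma, adjusted p = 0.0296). Its change with shS100A10_1 was 0.83 (limma, adjusted p = 0.201), and the difference between hairpins was 0.70 (limma, adjusted p = 0.0917). Without shS100A10_5 replicate 2 the AHNAK2 change with that hairpin was 1.53 (limma, adjusted p = 0.0993), and its call for the mean was lost without either shNCT array (0.199 and 0.337) or either shS100A10_5 array (0.0888 and 0.146). The other 4 genes of this list did not pass, among them the membrane repair genes MYOF and DYSF and the periaxin gene PRX. Of all probe sets, 3.18% passed with shS100A10_5 and 0.307% for the mean.

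**Figure D3:**
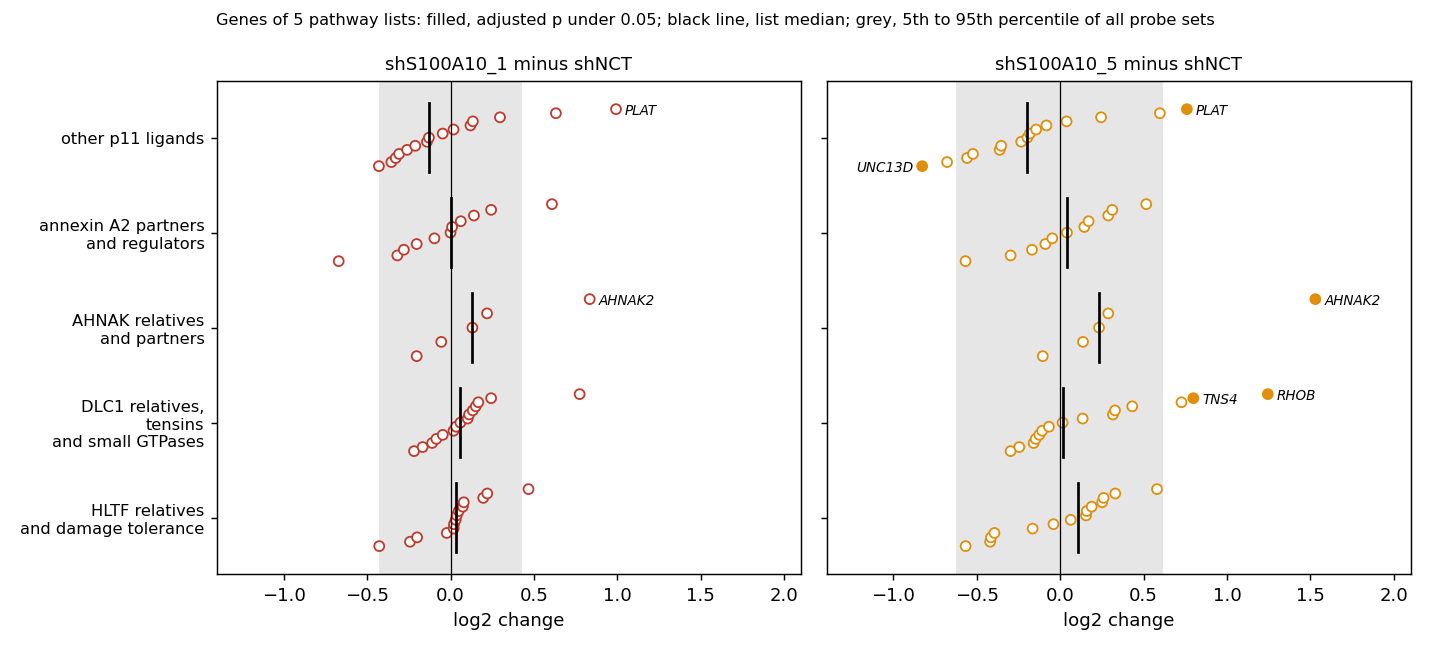
Points are log2 changes of the genes in 5 lists with shS100A10_1 (left) and shS100A10_5 (right), filled where the adjusted p is under 0.05, with list medians as black lines and the 5th to 95th percentile of all probe sets in grey. No point is filled on the left, and UNC13D, PLAT, AHNAK2, TNS4 and RHOB are filled on the right.

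Around DLC1, 2 of 15 genes rose with shS100A10_5, where 3.18% of all probe sets passed, and none passed by limma with shS100A10_1, where 0.189% did and 1 of the 15 had an unadjusted p under 0.05. RHOB, a small GTPase of endosomes, read 209.8 and 260.3 with shS100A10_1, 493.4 and 594.2 with shS100A10_5, and 238.2 and 219.2 with shNCT. Both shS100A10_5 arrays lay above all others, and those of shS100A10_1 lay on either side of the controls. With shS100A10_5 the rise was 1.24 on the log2 scale (SE 0.19; limma, adjusted p = 0.0117). RHOB was also the 1 list gene that differed between the hairpins, by 1.21 (SE 0.19; limma, adjusted p = 0.0135). Without shS100A10_5 replicate 2 its change against shNCT was 1.11 (limma, adjusted p = 0.130) and its difference between hairpins was 1.08 (limma, adjusted p = 0.110).

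TNS4, a short tensin that lacks the actin-binding part of its relatives, read 40.2 and 34.2 with shS100A10_1, 35.7 and 39.8 with shS100A10_5, and 20.5 and 22.9 with shNCT. All hairpin arrays exceeded the controls, at the dim end of the array. TNS4 rose by 0.80 with shS100A10_5 (SE 0.18; limma, adjusted p = 0.0438), its change with shS100A10_1 was 0.77 (limma, adjusted p = 0.181), and without shS100A10_5 replicate 2 it was 0.72 (limma, adjusted p = 0.192). Adding an offset of 16 to every intensity brought the TNS4 change to 0.51 (limma, adjusted p = 0.0569), and it passed under 6 of 15 other settings, failing also with quantile normalization, array weights and only the groups compared. ARHGAP5, another GTPase-activating protein, had a change of 0.73 with shS100A10_5 (limma, adjusted p = 0.0710). The closest relatives of DLC1, STARD8 and STARD13, and the small GTPase genes RHOA and RHOC did not pass in any comparison.

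Of 14 damage tolerance genes around HLTF, none passed by limma in any comparison, with 1 at an unadjusted p under 0.05 for shS100A10_1 (FBH1) and 4 for shS100A10_5 (PCNA, ZRANB3, POLH and FBH1), all lower. Over all probe sets the shares under that unadjusted p were 8.44% for shS100A10_1 and 21% for shS100A10_5. The shares past the adjusted threshold ran from 0.189% to 3.18% over the comparisons. PCNA encodes the replication clamp that HLTF modifies. Those with the smallest p for the mean were FBH1, a DNA helicase (-0.42, limma, adjusted p = 0.284), the translesion polymerase gene POLH (-0.32, adjusted p = 0.369) and the fork remodelling gene ZRANB3 (-0.38, adjusted p = 0.382). ZRANB3 lay at the dim end of the array, with intensities from 19.7 to 31.4, and its mean change was -0.23 with an offset of 16. SHPRH, the closest relative of HLTF as a ubiquitin ligase, had changes of 0.47 with shS100A10_1 and 0.25 with shS100A10_5 (limma, adjusted p = 0.696 and 0.633).

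Which genes followed the S100A10 level most closely was described by Pearson's r of log2 intensities over the 6 arrays, among the 530 named probe sets with an SD of at least 0.5. The arrays fall into the 3 separate S100A10 levels, so r carries no p here and mostly ranks how group means lie. The genes were picked on these same arrays, so their changes and adjusted p are descriptions and no separate test. The most alike were PDLIM2, a PDZ and LIM domain protein (r = 0.99), the carboxypeptidase gene CPA3 (0.97), the glycogenin gene GYG2 (0.96), the kinase gene RPS6KA5 (0.94) and UMAD1 (0.94). PDLIM2 had log2 levels of 9.15 and 9.04 with shS100A10_1, 9.61 and 9.68 with shS100A10_5, and 10.34 and 10.22 with shNCT. It changed by -1.18 with shS100A10_1 (SE 0.17; limma, adjusted p = 0.0223) and by -0.63 with shS100A10_5 (SE 0.17; limma, adjusted p = 0.0694).

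The most opposite were the membrane trafficking gene MAL2 (r = -0.98), the cytokine gene TNFSF15 (-0.98), the lipid enzyme gene AGMO (-0.98), the cystatin gene CST1 (-0.98) and VGLL3, a cofactor of TEAD transcription factors (-0.97). VGLL3 had log2 levels of 9.81 and 9.78 with shS100A10_1, 8.98 and 9.41 with shS100A10_5, and 8.44 and 8.68 with shNCT. It changed by 1.23 with shS100A10_1 (SE 0.20; limma, adjusted p = 0.0450) and by 0.63 with shS100A10_5 (limma, adjusted p = 0.105). Because these genes were picked by SD and r on the same arrays, large changes against shNCT are partly built in. MAL2, TNFSF15, AGMO and CST1 changed more than VGLL3 and passed the threshold with both hairpins. With shS100A10_1 each rose by at least 1.84, the CST1 value (limma, adjusted p = 0.00175). Their rises with shS100A10_5 ran from 1.08 for TNFSF15 (limma, adjusted p = 0.0147) to 1.55 for AGMO (limma, adjusted p = 0.00626). Of ANXA2, AHNAK, DLC1 and HLTF, none passed the threshold, so no likeness was ranked for them.

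**Figure D4:**
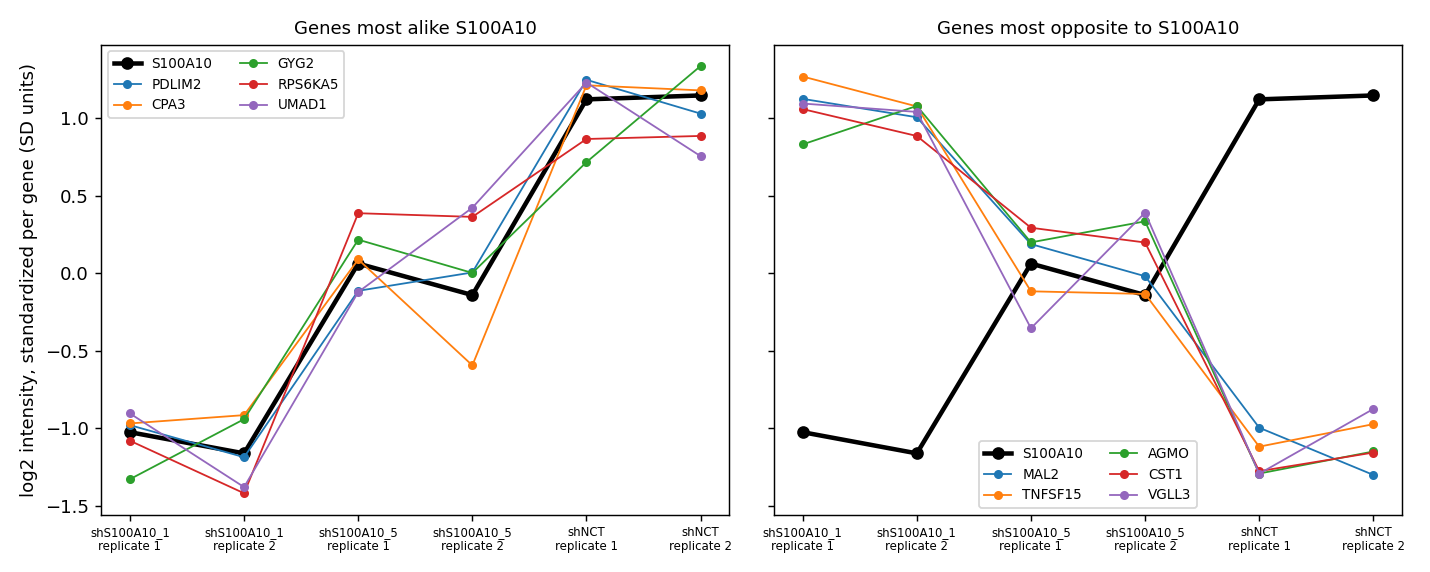
Log2 intensities on the 6 arrays, centred on each gene's mean and divided by its SD, for S100A10 (black) and the 5 genes most alike (left) or most opposite (right) to it. Lines only join the arrays of a gene. The genes on the left are lowest with shS100A10_1, those on the right are highest with it, and shS100A10_5 lies between.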

How the data were processed

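Per the submitters' processing notes, the authors made the values with Transcriptome Analysis Console. The software version, summarization and normalization were not given in the sources used here. As deposited, the table holds linear intensities, 1 for each probe set on each array. Per the labels' protocols, cDNA made from total RNA was labelled with biotin for cartridge arrays. The table has no detection calls, saturation flags or scan dates, so batches could not be tested.

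Of 16965 probe sets, 15674 had 1 gene symbol in the platform annotation, 0 had several and 1291 had none, and RefSeq changed 0 symbols. Groups came from the sample titles. A mean per group was fitted to the log2 intensities of the 6 arrays by lmFit and eBayes (limma 3.58.1, R 4.3.3; 3 residual and 7.16 prior degrees of freedom), and two-sided p-values were given Benjamini-Hochberg adjustment across the whole table. The step was tested on simulated data.

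Named were all 5 members, every list gene past the threshold, the 3 genes per list nearest the threshold by p when both hairpins were averaged, and for S100A10 the 5 most alike and 5 most opposite probe sets; other list genes named without passing were chosen for their known roles after their values were seen. Members, lists and rules were chosen with earlier results of these data known. The 12 alternatives covered normalization, filters on dim probe sets, the variance prior, array weights, the replicate block, samples and probe sets in the fit, an offset of 16, and leaving out each array. Array weights were equal for the 2 arrays of a group (0.63 for both of shS100A10_5), so they set no single array apart.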

Additional observations from a re-analysis of the deposited data

Results flagged for a closer look

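Results are given here where the effects of the hairpins differed from each other by limma's test of shS100A10_5 against shS100A10_1, among the 5 genes and the named list genes. S100A10 was 2.70 higher on the log2 scale with shS100A10_5 than with shS100A10_1 (SE 0.21; limma, adjusted p = 0.00102), with both shS100A10_5 arrays above both shS100A10_1 arrays.

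RHOB was 1.21 higher with shS100A10_5 than with shS100A10_1 (SE 0.19; limma, adjusted p = 0.0135), again in 2 of 2 arrays. Over the other settings its adjusted p ran from 0.00281 to 0.110, and it missed the threshold without shS100A10_1 replicate 1 (0.0872) or shS100A10_5 replicate 2 (0.110). In those fits the group has 1 array and the other groups supply the spread. No cause was tested for either.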

How the results depend on the processing

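The S100A10 calls held in all 4 comparisons under each setting run, with log2 changes from -5.88 to -5.53 for shS100A10_1 and from -3.26 to -2.74 for shS100A10_5 against shNCT. DLC1 with shS100A10_5 passed with probe sets above the lower quartile (-0.69, adjusted p = 0.0322), an intensity trend (-0.69, 0.0475) and an offset of 16 (-0.63, 0.0284), and against shS100A10_1 with the offset (-0.54, 0.0479). HLTF between the hairpins had an adjusted p of 0.0455 without shS100A10_5 replicate 1 (0.98) and was 0.21 without replicate 2. Each left-out fit has 1 array in that group, assumed to vary like the other groups. Changes near 0 crossed it without passing. With an array left out, ANXA2 ran from -0.116 to 0.0312 for shS100A10_1, from -0.128 to 0.0190 for shS100A10_5, from -0.0724 to 0.0480 between the hairpins and from -0.122 to 0.0251 for the mean. AHNAK ran from -0.0067 to 0.123 for shS100A10_1, from -0.106 to 0.0242 for shS100A10_5 and from -0.0563 to 0.0738 for the mean, and HLTF from -0.11 to 0.66 with shS100A10_5 and from -0.21 to 0.17 for the mean. Quantile normalization gave 0.00 for ANXA2 with shS100A10_1 and -0.0037 for AHNAK in the mean.

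The number of list genes past the threshold with shS100A10_1 was 1 with either filter, the trend, array weights or the offset, and 0 as reported and with any one array left out. With shS100A10_5 it was 8 with the trend, 2 with array weights, 3 with only the groups compared, and 0 to 6 with an array left out, against 5. Between the hairpins it was 2 above the lower quartile or with the offset, 5 above the median or with the trend, and 0 to 2 with an array left out, against 1. For the mean it was 1 with quantile normalization, 1 with the replicate block (PLAT lost, adjusted p = 0.0518), 3 with the trend and 0 to 1 with an array left out, against 2. Over all probe sets, the count ran from 8 to 98 for shS100A10_1 (main 32), from 3 to 1454 for shS100A10_5 (539), from 7 to 1144 between the hairpins (494) and from 6 to 218 for the mean (52), lowest without shNCT replicate 2, shS100A10_5 replicate 2 (for both), or shNCT replicate 1, and highest with the trend. The cause was not tested. The replicate block changed no member's call (S100A10 with shS100A10_1, -5.70, adjusted p = 1.11e-06). Deviations of same-numbered arrays correlated at -0.02 for shS100A10_1 and shNCT, -0.04 for shS100A10_5 and shNCT, and 0.19 between the hairpins. With 2 arrays a group, these values cannot settle whether arrays of the same number belong together.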
